A study of Mus musculus with 12 samples.

Results

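Atp1b1 encodes the β1 subunit of the sodium-potassium pump, and its 5′ UTR was 1 of 3366 5′ UTRs of named genes whose eIF4G2 CLIP tags were counted in cultured mouse cortical neurons. The gene was chosen by its tag count in depolarized replicate 1, where its 5′ UTR held more tags than any other. Its tags in that library are therefore given as a description, and tests rest on the 10 other libraries. CLIP crosslinks a protein to the RNA it touches in living cells, pulls the protein down and sequences the attached RNA fragments, called tags. eIF4G2 is a translation initiation factor related to eIF4G that lacks its binding site for the cap-binding protein.

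All libraries came from primary cortical neurons of CD-1 mouse embryos with no genetic change named, and both groups received cycloheximide for 2 min before harvest. Resting neurons had no other treatment named in the labels. Depolarized neurons were first silenced with tetrodotoxin and DL-AP5 for 2 h, then given 55 mM KCl for 1 h, and left to rest for 30 min. The labels name 6 replicates per group, but replicate 5 has the same values under both group names and was counted once, as resting, which left 6 resting and 5 depolarized libraries. No other pair of libraries was identical. In a chi-square test of their tags, the largest p over the 55 pairs of distinct libraries was 0.00771. Many 5′ UTRs held too few tags for this p to be reliable, so it is given as a description.

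The libraries were shallow, with 264 to 5240 tags on 5′ UTRs and 15767 in all. The deepest were depolarized replicate 1 with 5240 tags, resting replicate 1 with 3224 and depolarized replicate 3 with 2288, and the other 8 held 264 to 955. Of 14 neuronal marker genes, 8 were in the tables and all 8 were tagged, led by Syt1, the calcium sensor of synaptic vesicles, with 143 tags. The 8 summed to between 0.186% and 4.25% of tags in the resting libraries and to between 0.546% and 1.84% in the depolarized ones. Astrocyte markers had 2 of 7 genes in the tables and took at most 0.124% of a library. The microglial marker Aif1 had 1 tag, and no oligodendrocyte or endothelial marker was listed, so that for these cell types the tables hold almost no information. The paper reports that its cultures, checked by immunofluorescence and by transcriptome, lacked contaminating non-neuronal cells. Any other cells in a culture would have been harvested with the neurons. Fewer cells of a type, less of a transcript per cell and less contact with eIF4G2 cannot be told apart in a tag count.

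The sodium-potassium pump uses ATP to move sodium out of the cell and potassium in, against their gradients. In neurons this restores the ion gradients that action potentials and synaptic currents run down, and it takes a large part of the energy budget of the brain. The α subunit splits ATP and carries the ions, the β subunit is needed for the pump to fold and to reach the cell surface, and small FXYD proteins tune its activity. β1 also joins cells to each other through its extracellular part.

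In GENCODE M21 (GRCm38), Atp1b1 (ENSMUSG00000026576.12) lies on the minus strand of chromosome 1, at chr1:164437109-164458355, and has 6 exons. Its 5′ UTR lies within exon 1 at chr1:164457858-164458355. It is 498 bases long, longer than 76.2% of the 3315 listed 5′ UTRs found in that annotation, whose median is 306 bases. Its GC content is 74.1%, above that of 79.5% of them, against a median of 65.9%. No other gene overlaps it, the nearest being the lincRNA gene Gm32391 on the opposite strand, 4087 bases away, and no annotated pseudogene is named for Atp1b1.

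CGCGGC is one of the predicted eIF4G2 motifs that the study examined, and the paper reports it as the motif most crosslinked in its eIF4G2 CLIP. The stretches of 5′ UTR around this hexamer are shown for Atp1b1 and for Tcp1. Tcp1 was taken because it had the most tags of all 5′ UTRs in the series and also holds the hexamer once. It does not stand for all heavily tagged 5′ UTRs. Those of 2410002F23Rik, Rabggtb, Syt1, Dpysl2 and Aars held 0, and that of Pafah1b1 held 2. Each line gives 30 bases, 5′ to 3′ on the sense strand, with the hexamer in capitals.
Atp1b1: cctaggctgctcCGCGGCgcgcctcgcact
Tcp1: cccagcaggcccCGCGGCatcgctcgggcc
The Atp1b1 stretch is at chr1:164458003-164458032 on the minus strand of GRCm38, and the Tcp1 stretch at chr17:12916436-12916465, on the plus strand. The hexamer begins at base 336 of the Atp1b1 5′ UTR, and 157 bases lie between its end and the start codon. In Tcp1 it begins at base 67, and 112 bases lie between its end and the start codon. The 5′ UTRs of Atp1b2, the β2 subunit, and of Fxyd6, an FXYD regulator, did not hold CGCGGC. The tags are counted per 5′ UTR, without positions, so no tag can be placed on or off the hexamer.

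A single CGCGGC was no rare feature. Of the 3315 5′ UTRs, 36.8% held it, and of the 618 that were 400 to 600 bases long, 48.5% did. On the other strand the motif reads GCCGCG, which the Atp1b1 5′ UTR held 3 times, 0 of them overlapping CGCGGC, and 35.8% of 5′ UTRs held at least once. The Atp1b1 5′ UTR contained no ATG upstream of the start codon. This was the case in 33.4% of all 5′ UTRs but in 14.4% of those of 400 to 600 bases, or 89 of the 618. Of the other pump genes, Atp1b2, Fxyd6 and Nkain3 had no upstream ATG either, Nkain1 had 1 and Nkain2 3. Start codons other than ATG were not searched.

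At rest, the Atp1b1 5′ UTR carried 12 tags in replicate 1, 1 in replicate 2, 2 in replicate 3, 6 in replicate 4, 6 in replicate 5 and 5 in replicate 6. As a share of the tags of each library these counts were 0.372%, 0.270%, 0.654%, 0.823%, 0.647% and 0.548%. Every resting library had at least 1 Atp1b1 tag, and the largest count came from the deepest library, which had the next to lowest share. After depolarization there were 86 tags in replicate 1, 6 in replicate 2, 15 in replicate 3, 2 in replicate 4 and 1 in replicate 6. The corresponding shares were 1.64%, 0.628%, 0.656%, 0.364% and 0.379%. Depolarized replicate 1 lay above all other libraries, whereas the other 4 depolarized libraries lay within the range of the resting ones.

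**Figure D1:**
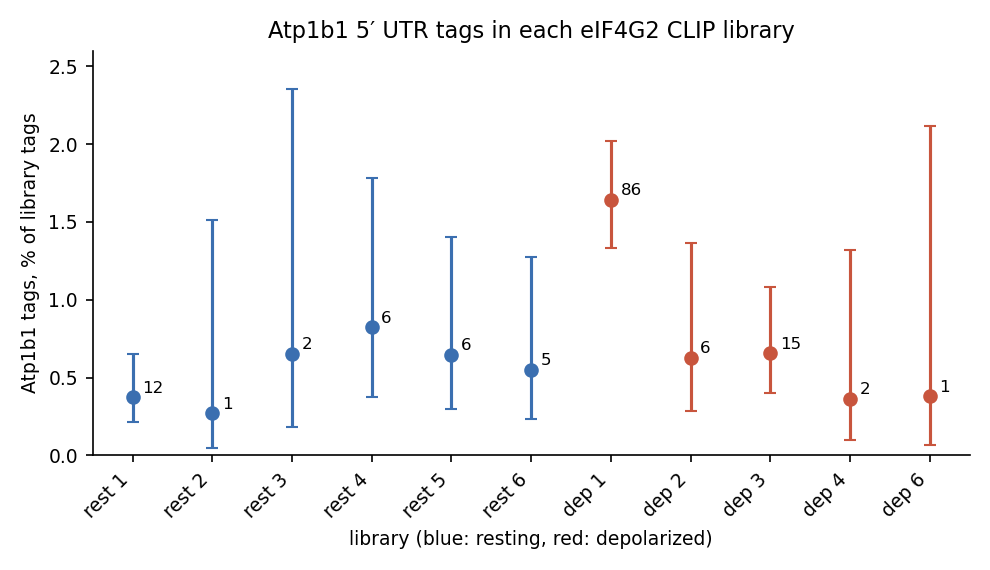
Atp1b1 tags as a percentage of all 5′ UTR tags in each library (y axis), with blue points for the 6 resting and red points for the 5 depolarized libraries. Bars are Wilson 95% intervals, the number beside each point is the tag count, and depolarized replicate 1 sits at 1.64% while the other 10 libraries sit between 0.270% and 0.823%.

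The precision of single libraries was low. The Wilson 95% interval of the Atp1b1 share ran from 1.33% to 2.02% in depolarized replicate 1, from 0.213% to 0.649% in resting replicate 1 and from 0.0669% to 2.11% in depolarized replicate 6. These intervals cover counting error only. Among the 10 libraries other than depolarized replicate 1, none of the 45 pairs had intervals that failed to overlap, so no order among them could be read at this depth. The interval of depolarized replicate 1 overlapped those of 6 of the 10, and lay above those of resting replicates 1 and 6 and depolarized replicates 3 and 4. Depolarized replicate 1 was also the deepest library. The next deepest, resting replicate 1 and depolarized replicate 3, had shares of 0.372% and 0.656%.

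The high library weighs heavily in any sum. It supplied 86 of the 142 Atp1b1 tags, or 60.6%, against 33.2% of the tags on all 5′ UTRs. The pooled share was 0.532% (56 of 10527 tags, Wilson 95% interval 0.410% to 0.690%) in the 10 other libraries and 0.901% when depolarized replicate 1 was added.

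The rule that picked Atp1b1 was a count, and the 5′ UTRs next below it in depolarized replicate 1 were Dpysl2 with 57 tags, Pafah1b1 with 56, Tcp1 with 51, Syt1 with 46 and Aars with 43. Dpysl2 encodes CRMP2, a regulator of axon growth, Pafah1b1 encodes the dynein regulator LIS1, Tcp1 a subunit of the CCT chaperonin and Aars the alanyl-tRNA synthetase. Per length the order was another. Atp1b1 had 173 tags per kb of 5′ UTR in depolarized replicate 1, which was rank 10 of 3315, and Tcp1 had 277 and Dpysl2 178. In the 10 other libraries Atp1b1 had 112 tags per kb, rank 46.

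A count of 86 was not the highest of the series. The most tagged 5′ UTR was Tcp1 in resting replicates 4, 5 and 6 and depolarized replicates 4 and 6, with 36 to 112 tags. It was 2410002F23Rik in resting replicate 1 (70 tags), Hps4 in resting replicate 2 (8), Syt1 in resting replicate 3 (12), Pde7a in depolarized replicate 2 (40) and Deaf1 in depolarized replicate 3 (78). By its count, Atp1b1 ranked between 8 and 86 in the libraries other than depolarized replicate 1, and the rank of 86 belonged to resting replicate 2, where it had a single tag.

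The share of Atp1b1 in depolarized replicate 1 was 3.24 times its mean in the other 4 depolarized libraries. The same ratio was 2.19 for Dpysl2, 1.74 for Pafah1b1, 1.72 for Aars, 0.923 for Syt1 and 0.129 for Tcp1. Tcp1 took 0.973% of depolarized replicate 1 but 7.54% ± 8.25 (SD, n = 4) of the other depolarized libraries and 6.10% ± 5.23 (SD, n = 6) of the resting ones. Dpysl2 took 1.09% of depolarized replicate 1, 0.498% ± 0.111 (SD, n = 4) of the other depolarized libraries and 0.207% ± 0.166 (SD, n = 6) of the resting ones.

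**Figure D2:**
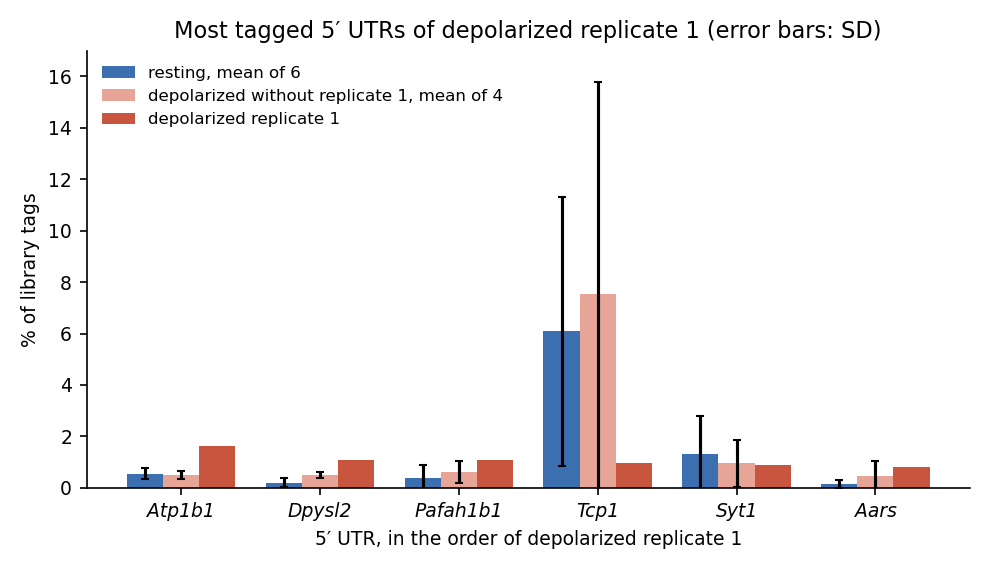
Share of library tags in percent (y axis) for the 6 5′ UTRs with the most tags in depolarized replicate 1, in that order on the x axis. Blue bars are means of 6 resting libraries, pale red bars means of 4 other depolarized libraries, both with SD (cut at 0), and dark red bars are depolarized replicate 1, where Atp1b1 stands at 1.64% against means of 0.552% and 0.507%, while Tcp1 is lower there than elsewhere.

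The study asked whether depolarization changes which 5′ UTRs eIF4G2 contacts. Outside the library that chose the gene, no change of Atp1b1 with depolarization was detected. At rest its share was 0.552% ± 0.202 (SD, n = 6), with a median of 0.597%, and 0.507% ± 0.157 (SD, n = 4) in depolarized replicates 2, 3, 4 and 6, with a median of 0.504%. The difference, depolarized minus resting, was -0.0454 percentage points (two-sided exact permutation test, p = 0.733, smallest possible 0.00952). The ranges of the groups overlapped over the whole span of the depolarized values.

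The fit across all 5′ UTRs gave the same reading. edgeR's quasi-likelihood test on the 178 5′ UTRs with at least 10 tags put the log2 fold change of Atp1b1 at 0.12 (SE 1.14, adjusted p = 0.985, Benjamini-Hochberg). In this fit 2 5′ UTRs, or 1.12% of those tested, were higher after depolarization and 0, or 0%, were lower (12 and 2 at an unadjusted p under 0.05). DESeq2 called 0 in either direction (1 higher and 0 lower at an unadjusted p under 0.05). Those called by edgeR were Pde7a, a cyclic AMP phosphodiesterase (log2 fold change 5.19, adjusted p = 0.0158), and Adnp, a chromatin regulator (3.91, adjusted p = 0.0378). Depolarized replicate 2 held all 40 depolarized tags of Pde7a and 20 of the 23 of Adnp, and 0 5′ UTRs were called without that library. With the replicate as a block, 0 were called (1 higher and 2 lower at an unadjusted p under 0.05). The median log2 fold change over the 178 was 0.26, and relative to it Atp1b1 stood at -0.13 with TMM scaling, at -0.16 with library totals and at -0.15 with DESeq2's size factors. On the unshifted scale the sign was positive with TMM only, and it was -0.062 with library totals and -0.18 with DESeq2's size factors.

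The test after the study's methods, which sums the tags of each condition and takes p below 0.2 in a binomial test as a call, did not call Atp1b1. It compared 32 resting with 24 depolarized tags, which after scaling for depth gave a log2 fold change of 0.26 (exact binomial test, p = 0.597). Of the 2695 5′ UTRs tested, 5.23% were higher and 3.15% lower. The ratio of the pooled shares was 1.20, with an exact 95% counting interval from 0.674 to 2.10. The interval holds no change as well as changes of either sign.

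With depolarized replicate 1 included, and given without a test, the mean depolarized share was 0.734% ± 0.525 (SD, n = 5), the ratio of pooled shares 2.39 and the log2 fold change on summed tags 1.26. Depolarized replicate 1 therefore set the size of the difference.

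Resting and depolarized libraries of a number shared a pool after reverse transcription, so each pair can be read on its own. In replicate 1 the depolarized share was 4.41 times the resting one. The ratio was 2.33 in replicate 2 and 1.00 in replicate 3, then 0.443 in replicate 4 and 0.692 in replicate 6. Depolarized was above resting in replicates 1, 2 and 3, by little in replicate 3, and below it in replicates 4 and 6. Over the 4 pairs without replicate 1 the mean difference was -0.0667 percentage points (exact sign-flip permutation test, p = 0.75, smallest possible 0.125).

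The groups were also compared within the low and the high replicate numbers, whose resting shares overlapped. The resting share was 0.432% ± 0.199 (SD, n = 3) in replicates 1 to 3 and 0.672% ± 0.140 (SD, n = 3) in replicates 4 to 6, and the depolarized share 0.642% ± 0.0193 (SD, n = 2) in replicates 2 and 3 and 0.372% ± 0.0102 (SD, n = 2) in replicates 4 and 6. Within replicates 1 to 3 the difference, depolarized minus resting, was 0.210 percentage points (exact permutation test, p = 0.4), and the pooled binomial test gave a log2 fold change of 0.75 (p = 0.188), which passes the study's threshold. Within replicates 4 to 6 the difference was -0.301 percentage points (exact permutation test, p = 0.2, the smallest possible) and the pooled log2 fold change -0.83 (p = 0.332), with both depolarized libraries below all 3 resting ones. edgeR gave 0.71 (adjusted p = 0.974) in replicates 1 to 3 and -0.82 (adjusted p = 0.831) in replicates 4 to 6. Tcp1 moved with the same split: it took 9.31% to 15.7% of each library in replicates 4 to 6, and 0.973% of depolarized replicate 1. In the other libraries of replicates 1 to 3 it held 2 to 56 tags. There it lay below the most tagged 5′ UTR, which took at most 4.19% of a library. The part of Tcp1 in the Atp1b1 shares was not tested.

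**Figure D3:**
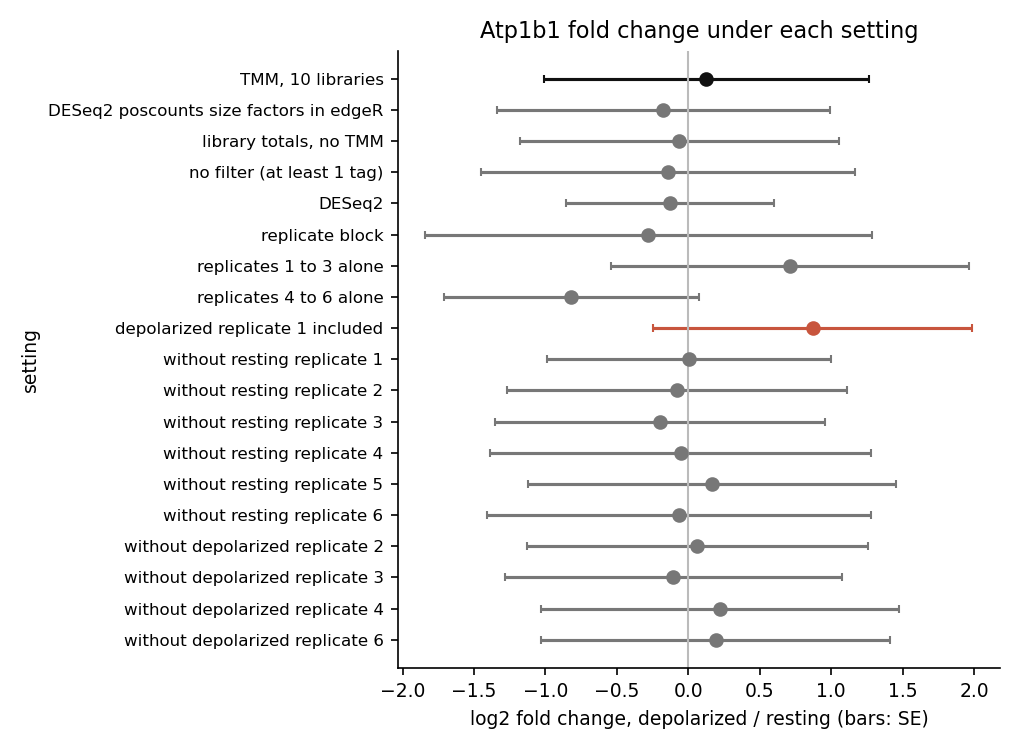
Fold change of Atp1b1, depolarized against resting, on the log2 scale (x axis), under each setting of the edgeR fit and DESeq2 (y axis), with standard errors as bars. Points lie between -0.82 for replicates 4 to 6 alone and 0.87 with depolarized replicate 1 included, which is shown as a description, and each bar crosses 0.

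The evenness of Atp1b1 across libraries was its other feature. Only 4 5′ UTRs were tagged in all 11 libraries: Tcp1 with 527 tags in all, 2410002F23Rik with 390, Rabggtb, a subunit of the enzyme that prenylates Rab proteins, with 208, and Atp1b1 with 142. The same number, 4, was tagged in all 10 libraries other than depolarized replicate 1. There Atp1b1 ranked 12 by summed tags and 11 by mean share.

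Over those 10 libraries the coefficient of variation of the Atp1b1 share, the SD divided by the mean, was 0.332. This was the lowest of the 56 5′ UTRs with at least 20 tags, whose median was 1.04 and whose highest value was 3.07, for Pde7a. Next came Gpr162 at 0.546 and Dpysl2 at 0.635. All 11 5′ UTRs with more tags than Atp1b1 varied more, the lowest of them being Ddx39b at 0.705. Atp1b1 also ranked lowest when each of the 10 libraries was left out in turn, with a minimum of 10 or of 40 tags, and in the resting libraries alone. With depolarized replicate 1 included its coefficient was 0.589 and it ranked 2 of 135.

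Counts this small vary by chance alone, and the index of dispersion sets the spread against that of counting, with 1 for pure counting noise. It was 0.526 for Atp1b1, rank 2 of 56 after Atxn7l3b at 0.500. The median was 1.92, Tcp1 was the highest at 69.4, and 9 5′ UTRs had an index of 1 or less. The spread of Atp1b1 between the 10 libraries, both conditions included, was therefore no larger than that of counting.

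**Figure D4:**
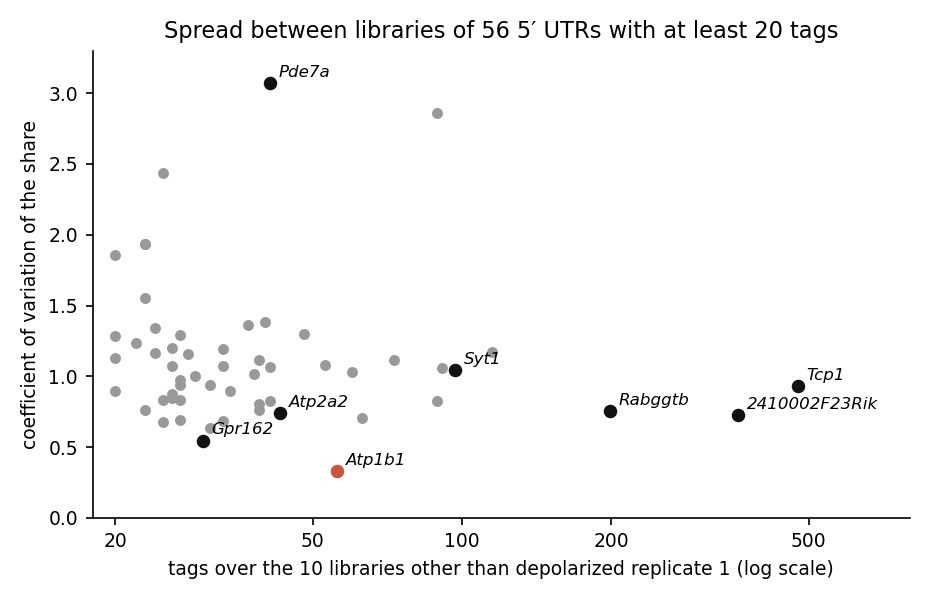
Coefficient of variation of the share of library tags (y axis) against summed tags on a log scale (x axis), over the 10 libraries other than depolarized replicate 1, for 56 5′ UTRs with at least 20 tags, each a point. Atp1b1 (red) lies lowest at 0.332 with 56 tags, and the named points in black include Gpr162 at 0.546 and Pde7a at 3.07.

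Per length, Atp1b1 was among the more tagged 5′ UTRs in both conditions. It had 11.1 ± 4.06 (SD, n = 6) tags per kb of 5′ UTR per 1000 library tags in resting neurons, rank 41 of 3315, and 10.2 ± 3.14 (SD, n = 4) in depolarized replicates 2, 3, 4 and 6, rank 57. Among the 618 5′ UTRs of 400 to 600 bases it ranked 2 by tags in the 10 libraries, with 56 against a median of 2, after Zbtb10 with 115. Transcript levels were not measured in these libraries, so tags per transcript are not known.

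Among the pump genes, Atp1b1 held most of the tags. Of 19 pump genes listed, 8 were in the tables and all 8 were tagged, with 188 tags in all. Atp1b1 had 142 of them, or 75.5%, and 56 of 82, or 68.3%, in the 10 libraries that did not choose it. Per length in those 10 libraries it had 112 tags per kb, against 45.3 for Fxyd6 and 2.19 for Atp1b2.

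The other β subunit in the tables was close to the detection limit. Atp1b2 had 1 tag in resting replicate 3 and 1 in depolarized replicate 1. Its count of 0 allows a share of up to 0.0931% in resting replicate 1, where Atp1b1 had 0.372%, and of up to 1.14% in depolarized replicate 6. In the shallow libraries the absence of a tag therefore says little.

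Fxyd6 was the only other pump gene with enough tags for the fit. At rest it was tagged in 4 of 6 libraries, with 6 tags in replicate 1, 2 in replicate 2, 1 in replicate 3 and 1 in replicate 6. It had 13, 2, 1, 1 and 0 in depolarized replicates 1, 2, 3, 4 and 6. Its groups overlapped, and edgeR put its log2 fold change at -0.23 (SE 1.08, adjusted p = 0.985). The Nkain genes encode membrane proteins that bind β1, and had few tags: Nkain1 had 2, Nkain2 1 and Nkain3 3, all of the last in depolarized replicate 2.

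**Figure D5:**
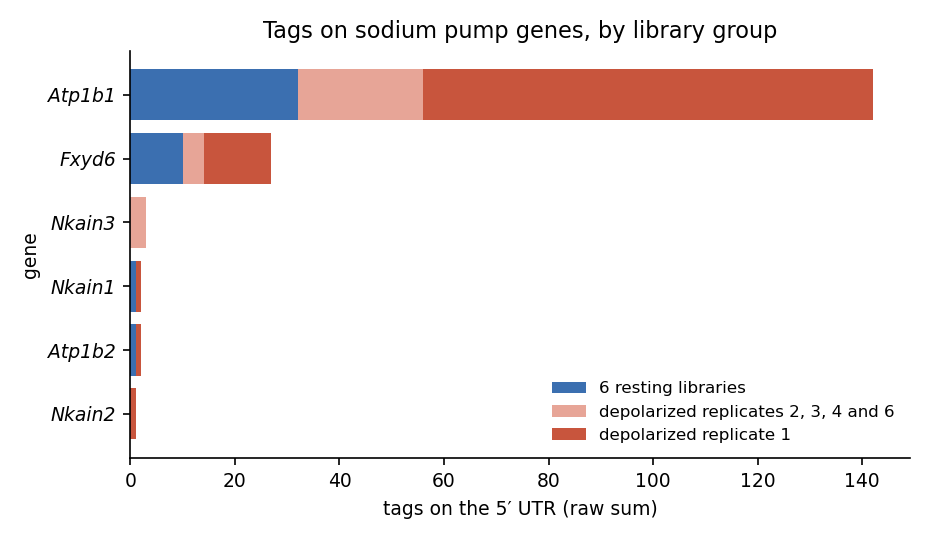
Raw tags on the 5′ UTRs of 6 pump genes (x axis, one bar per gene), stacked from 6 resting libraries (blue), depolarized replicates 2, 3, 4 and 6 (pale red) and depolarized replicate 1 (dark red). The Atp1b1 bar is made of 32, 24 and 86 tags, the Fxyd6 bar of 10, 4 and 13, and the other 4 genes have 1 to 3 tags each.

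Of the pump genes as a list, 1 passed the pooled test and 0 the edgeR test. In edgeR 2 of the 8 could be tested and 0 were called in either direction (1.12% of all tested were higher), with a median log2 fold change of -0.05 against 0.26 over all 178. The pooled test covered 7 and called 1 higher, Nkain3, on 3 tags of 1 library (exact binomial test, p = 0.125), and 0 lower (5.23% and 3.15% of all tested), with a median log2 fold change of -0.64 against -1.26 over all 2695. Together they took 0.866% ± 0.271 (SD, n = 6) of resting tags and 0.761% ± 0.317 (SD, n = 4) in depolarized replicates 2, 3, 4 and 6.

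The other transport ATPases in the tables numbered 18 and held 139 tags. This list was drawn by gene symbol and takes in ATPases that move phospholipids as well as ion pumps. The most tagged was Atp2a2, the calcium pump SERCA2 of the endoplasmic reticulum, whose resting libraries, in replicate order, held 9, 3, 4, 2, 5 and 7 tags. Depolarized replicates 1, 2, 3, 4 and 6 had 32, 2, 8, 3 and 0 tags on it. Its log2 fold change in edgeR was -0.61 (SE 1.13, adjusted p = 0.981). Below it came Atp6v0a1, a subunit of the vacuolar proton pump, with 14 tags, the plasma membrane calcium pumps Atp2b1 with 10 and Atp2b2 with 8, and Atp13a3 with 7. edgeR tested 2 of the 18 and called 0 in either direction (1.12% of all tested were higher and 0% lower), with a median log2 fold change of -0.43. The pooled test covered 16 and called 1 higher, Atp2b2 (exact binomial test, p = 0.0215), and 0 lower (5.23% and 3.15% of all tested), with a median of -0.31.

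The sodium, potassium and calcium channels and exchangers, whose currents the pump balances, numbered 43 and held 184 tags. edgeR tested 3 and called 0 in either direction (1.12% of all tested were higher and 0% lower), with a median log2 fold change of -0.77. None of the genes of these 3 lists tested by edgeR had an unadjusted p under 0.05. The pooled test covered 41 and called 0 higher and 2 lower, Kcnj3 (exact binomial test, p = 0.0227) and Kcna1 (p = 0.118), against 5.23% and 3.15% of all tested. Its median of -3.19 is that of genes with few tags, many with none in one condition. Kcnj3, a G protein-gated potassium channel, was counted 11, 1, 0, 1, 5 and 4 times in the resting libraries, in replicate order. Depolarized replicates 1, 2, 3, 4 and 6 had 5, 1, 1, 2 and 1, and the groups overlapped. Kcna1, a voltage-gated potassium channel, held 24 tags and its relative Kcna4 11. Kcnq5 had 8, Kcnc1 and the chloride exporter Slc12a5 7 each, and Kcnj11 and the sodium channel subunit Scn3b 5 each. The 43 together took 1.23% ± 0.445 (SD, n = 6) of resting tags and 0.858% ± 0.136 (SD, n = 4) in depolarized replicates 2, 3, 4 and 6.

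Among the 5′ UTRs whose levels followed Atp1b1 most closely over the 11 libraries, by Spearman correlation of depth-scaled tags among 134 with at least 20 tags, were those of the kinase Fyn (rho 0.77), the protocadherin Pcdh10 (0.71), Tafa2 (0.69) and the dynein light chain Dynll2 (0.64). The correlations are given as a description. The median was 0.17 and the lowest value -0.75, for the poly(A)-binding protein Pabpc1. The minimum of 20 tags and the correlation both include depolarized replicate 1, which chose Atp1b1, and Fyn, Pcdh10 and Dynll2 had fewer than 20 tags outside it. The points share their libraries and differ widely in depth, and Fyn, for example, had 23 of its 38 tags in depolarized replicate 1, 4 in depolarized replicate 3 and none in the other depolarized libraries.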

How the data were processed

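The authors mapped collapsed CLIP reads to mm10 with Rsubread, counted tags over UCSC known gene 5′ UTRs (longest transcript per gene) with summarizeOverlaps, and deposited raw counts per library; cutadapt is named in the submitters' processing notes. The handling of multi-mapping reads and of strand is not given in the sources used here. The 1 unnamed entry held 0 tags and was left out. Libraries held 264 to 5240 tags. The sources differ on the number of biological replicates: the labels name 6 per group, the methods 5 and the series text 3, and the labels were followed.

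Atp1b1, the gene lists and the tests were chosen with earlier results of these data known. Genes named are Atp1b1; pump genes in the tables; members of the other lists with at least 5 tags; the 5 5′ UTRs below Atp1b1 in depolarized replicate 1; the most tagged 5′ UTR of each library; and the 5 most like Atp1b1. Some genes that this rule names are not reported here, though the counts over the lists include them. Others (Pde7a and Adnp as called, and extremes of a ranking) were named after their values were seen.

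Counts were tested with edgeR 4.0.16 (R 4.3.3) by its quasi-likelihood test with TMM, library sizes over all 5′ UTRs, at least 10 tags and an adjusted p threshold of 0.05, and with DESeq2 1.42.0 as an alternative. The pooled binomial test used sums scaled to equal depth and a pseudocount of 0.1. Exact permutation tests, two-sided, and Wilson intervals used Python 3.11.15 with scipy 1.17.1, numpy 2.4.6 and pandas 2.3.3, and figures matplotlib 3.10.9. The fits were tested on simulated data. Other scalings, filters, pseudocounts and thresholds, a replicate block, replicate subsets and each library left out were tried. 5′ UTR features come from GENCODE M21, whose 5′ UTRs may differ from those the authors counted over.

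The labels say that the resting and depolarized libraries of a replicate were pooled after reverse transcription. Deviations of same-numbered libraries from their group means correlated at 0.31, 0.23, 0.15, 0.26 and 0.25 in replicates 1, 2, 3, 4 and 6. The same value for libraries of unlike number is not given, so these correlations do not test the pairing. The numbers were taken as pairs from the labels.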

Additional observations from a re-analysis of the deposited data

Results flagged for a closer look

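In groups of 5 or 6 libraries, a library is named here when its gap to the nearest other exceeds Dixon's 95% critical value, which chance alone does in about 1 of 20 groups. Depolarized replicate 1 stood apart with 86 Atp1b1 tags, the nearest depolarized library having 15. It also stood apart in the share of Atp1b1, at 1.64% against 0.656% in the nearest; the gene was chosen by this library, so the flag on Atp1b1 adds nothing to that choice. Resting replicate 1 stood apart in depth, with 3224 tags on all 5′ UTRs against 928 in the nearest resting library.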

How the results depend on the processing

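In edgeR the log2 fold change of Atp1b1 without depolarized replicate 1 was 0.12, and over 17 alternatives its adjusted p lay between 0.831 and 0.998, with 0 calls and 11 changes of sign. It was -0.18 with DESeq2's size factors, -0.062 with library totals, -0.14 with no filter, -0.13 in DESeq2, -0.82 in replicates 4 to 6 alone and -0.28 with the replicate as a block (pairing as labelled, adjusted p = 0.998), which changed no call on Atp1b1. Leaving out 1 library gave -0.20 to 0.22. Relative to the median of all 5′ UTRs it was -0.13, but -0.57 without resting replicate 1, 0.071 without resting replicate 4, 0.36 in replicates 1 to 3, 0.35 with depolarized replicate 1 included and 0.96 with no filter, and -0.31 to -0.049 in the other alternatives. The difference in share, -0.0454 percentage points, became 0.0258 with TMM sizes, 0.210 in replicates 1 to 3 and 0.182 with depolarized replicate 1 included, and -0.102 to 0.00883 with 1 library left out. The pooled log2 fold change, 0.26, became 1.26 with depolarized replicate 1 included, and lay between -0.058 and 0.38 with 1 library left out, the lowest without resting replicate 1. It was 0.75 in replicates 1 to 3 and -0.83 in replicates 4 to 6, subsets added for this test after seeing the data, as were the alternatives for the coefficient of variation, whose rank 1 became 2 with depolarized replicate 1 included. The cause of these changes was not tested.

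edgeR called 2 5′ UTRs higher and 0 lower. It called 1 higher with DESeq2's size factors or in replicates 1 to 3, and 0 with no filter, with the replicate block, in replicates 4 to 6 (1 lower) or with depolarized replicate 1 included; DESeq2 called 0. With 1 library left out it called 0 to 7 higher and 0 lower: 7 without resting replicate 1, 1 without resting replicate 6 or depolarized replicate 6, and 0 without resting replicate 3, 4 or 5 or depolarized replicate 2. The pooled test called 141 higher and 85 lower. With raw sums it called 328 higher, with at least 10 tags 45 higher and 34 lower, at p below 0.05 48 higher and 34 lower, in replicates 1 to 3 91 higher, in replicates 4 to 6 44 higher and 17 lower, and with depolarized replicate 1 included 148 lower. With 1 library left out it called 98 to 162 higher and 43 to 86 lower, the 43 without resting replicate 1. With 1 to 86 Atp1b1 tags a library, depth limits every value given here.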
